A study of Mus musculus with 18 samples.

Results

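The cell-death genes described here were 10 genes of apoptosis and necroptosis, picked by name from a table of 50600 genes. They were the death receptor pathway genes Tnfsf10, Fas and Casp8, the necroptosis genes Zbp1, Ripk1, Ripk3 and Mlkl, and the BH3-only genes Bbc3, Pmaip1 and Bcl2l11. All 10 passed the filter on low counts, which left 16927 genes to test. RNA came from whole subcutaneous B16F10 tumors, a mouse melanoma line grown in C57BL/6 mice, which were injected intratumorally and collected 24 h after the last dose. A single dose was given to 5 groups of 2 tumors, which received free CDN2 at 20 µg or at 100 µg, exoCDN2 at 0.1 µg, EVs without cargo (unloaded EVs), or PBS. The 100 µg amount is given by the sample titles alone, and the descriptions of the RNA sequencing name 20 µg only, so the collection time of that group is taken from the general protocol in the labels. After 2 doses given 3 days apart there were tumors given PBS, exoCDN2 (0.1 µg), free CDN2 (20 µg) and free CDN2 whose label states no amount, again 2 per group. CDN2, which the sample labels call CL656, is a cyclic dinucleotide agonist of STING, and in exoCDN2 that agonist is carried by EVs from a clonal human HEK293 line that overexpresses the EV protein PTGFRN. The unloaded EVs carried no CDN2, and in the samples analysed here they were given as 1 dose only. Each level is a CPM value of 1 tumor, the share of its TMM-scaled total count. The p-values measure only the spread between the 2 tumors within groups, estimated over all groups in a fit.

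In apoptosis, ligands of the TNF family bind death receptors, which recruit caspase-8, or BH3-only proteins neutralise the BCL2 guardians of mitochondria. In necroptosis, RIPK1 or the nucleic acid sensor ZBP1 activates RIPK3, which phosphorylates MLKL so that it breaks the plasma membrane, and caspase-8 restrains this route. STING signalling induces type I interferon and NF-κB, and several genes of both death routes are known interferon or NF-κB targets.

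Total counts lay between 21608858 and 65983603 per tumor, and every count of these 10 genes was at least 15. The melanoma identity of the tissue was checked with 7 pigment cell markers, whose summed level was 20108.7 CPM or more in every tumor given 1 dose. The group given 2 doses of CDN2 (20 µg) stood apart. Its 2 tumors correlated at 0.961 over genes, against 0.986 to 0.998 in the other groups, 14% of genes differed more than 2-fold between them, and replicate 1 had the lowest total count. Its melanoma marker sum was 7515 and 13035 CPM, against 23772 and 24093 CPM in the PBS tumors given 2 doses. Its neutrophil marker sum was 882.5 and 199.95 CPM against 2.00 and 1.57 CPM, and its skeletal muscle marker sum 3631 and 1849 CPM against 154.7 and 280.4 CPM. In bulk RNA, a change in the number of cells of a type and a change in RNA per cell cannot be told apart.

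Promoter sequence is shown for 4 genes whose calls fell at different times: Tnfsf10 after every CDN2 treatment, Mlkl against PBS after 2 doses, Ripk1 after 1 dose, and Fas after both. The stretches are the nearest 150 bases upstream of the start that no GENCODE M21 exon covers, from the RefSeq promoter table on GRCm38.p6, at chr3:27316878-27317027 (plus strand), chr19:34290509-34290658 (plus strand), chr8:111338206-111338355 (minus strand) and chr13:34002213-34002362 (plus strand). Each is written 5′ to 3′ on the strand of the gene, and capitals mark matches to the motifs searched.
Tnfsf10: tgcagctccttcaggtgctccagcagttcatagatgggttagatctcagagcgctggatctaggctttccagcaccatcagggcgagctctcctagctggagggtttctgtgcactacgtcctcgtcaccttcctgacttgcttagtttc
Fas: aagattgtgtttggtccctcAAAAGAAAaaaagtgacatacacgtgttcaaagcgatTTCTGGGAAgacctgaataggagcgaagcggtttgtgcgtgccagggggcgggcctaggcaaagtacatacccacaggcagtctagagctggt
Mlkl: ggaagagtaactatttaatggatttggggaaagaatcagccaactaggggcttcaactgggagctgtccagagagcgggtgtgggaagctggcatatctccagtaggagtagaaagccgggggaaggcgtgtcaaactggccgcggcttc
Ripk1: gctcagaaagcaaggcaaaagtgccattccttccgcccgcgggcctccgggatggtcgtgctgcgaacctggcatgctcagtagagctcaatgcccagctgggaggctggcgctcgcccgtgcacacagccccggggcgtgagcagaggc
For 3 motifs, matches were sought on both strands of the 250 bases before each RefSeq start: the core of the interferon-stimulated response element (GAAA, any 2 bases, GAAA), the gamma-activated sequence (TTCNNNGAA), and the IRF element (AANNGAAA), which lies within every match of the first motif. Of 32851 mouse promoters, 2.98%, 7.02% and 21.3% held them. Entries existed for 8 of the 10 genes, with 12 promoters. None of the 8 genes held the response element core in these windows. The gamma-activated sequence lay 93 bases before the Fas start (TTCTGGGAA) and 108 and 11 bases before the second Ripk1 start (TTCCCGGAA in both). The IRF element lay 130 bases before the Fas start (AAAAGAAA) and 171 and 108 bases before the only Casp8 start listed, which lies inside the annotated gene. It also lay 53 and 30 bases before the Tnfsf10 start (TTTCACTT and AAAAGAAA). Of these Tnfsf10 matches the first is printed only in its opening bases, in lower case at the end of the stretch, and the second not at all, because an annotated exon covers the rest. A match is a description of letters, not of a bound site.

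Levels between genes were compared as CPM per kb of exon in the PBS tumors. After 1 dose of PBS, Mlkl (36.5 ± 0.020, SD, n = 2) and Casp8 (31.3 ± 1.21) were the most abundant, and Zbp1 (12.98 ± 1.87), Ripk1 (4.62 ± 0.062) and Bbc3 (3.91 ± 0.116) followed. Bcl2l11 (1.35 ± 0.056) and Ripk3 (1.29 ± 0.084) were neighbours within their spread. Tnfsf10 (0.807 ± 0.109) ranked below them, and Pmaip1 (0.399 ± 0.099) and Fas (0.288 ± 0.044) were the scarcest. After 2 doses of PBS, Casp8 (22.6 ± 6.81) and Mlkl (14.6 ± 1.70) again led, while Zbp1 (0.885 ± 0.162) ranked 7 and Tnfsf10 (0.123 ± 0.043) ranked 10. The 2 tumors of a group differed by more than 2-fold in 8 of the 90 pairs of a gene and a group, with the widest gaps for Pmaip1 (3.56-fold) and Fas (3.42-fold) after 2 doses of CDN2 (20 µg).

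**Figure D1:**
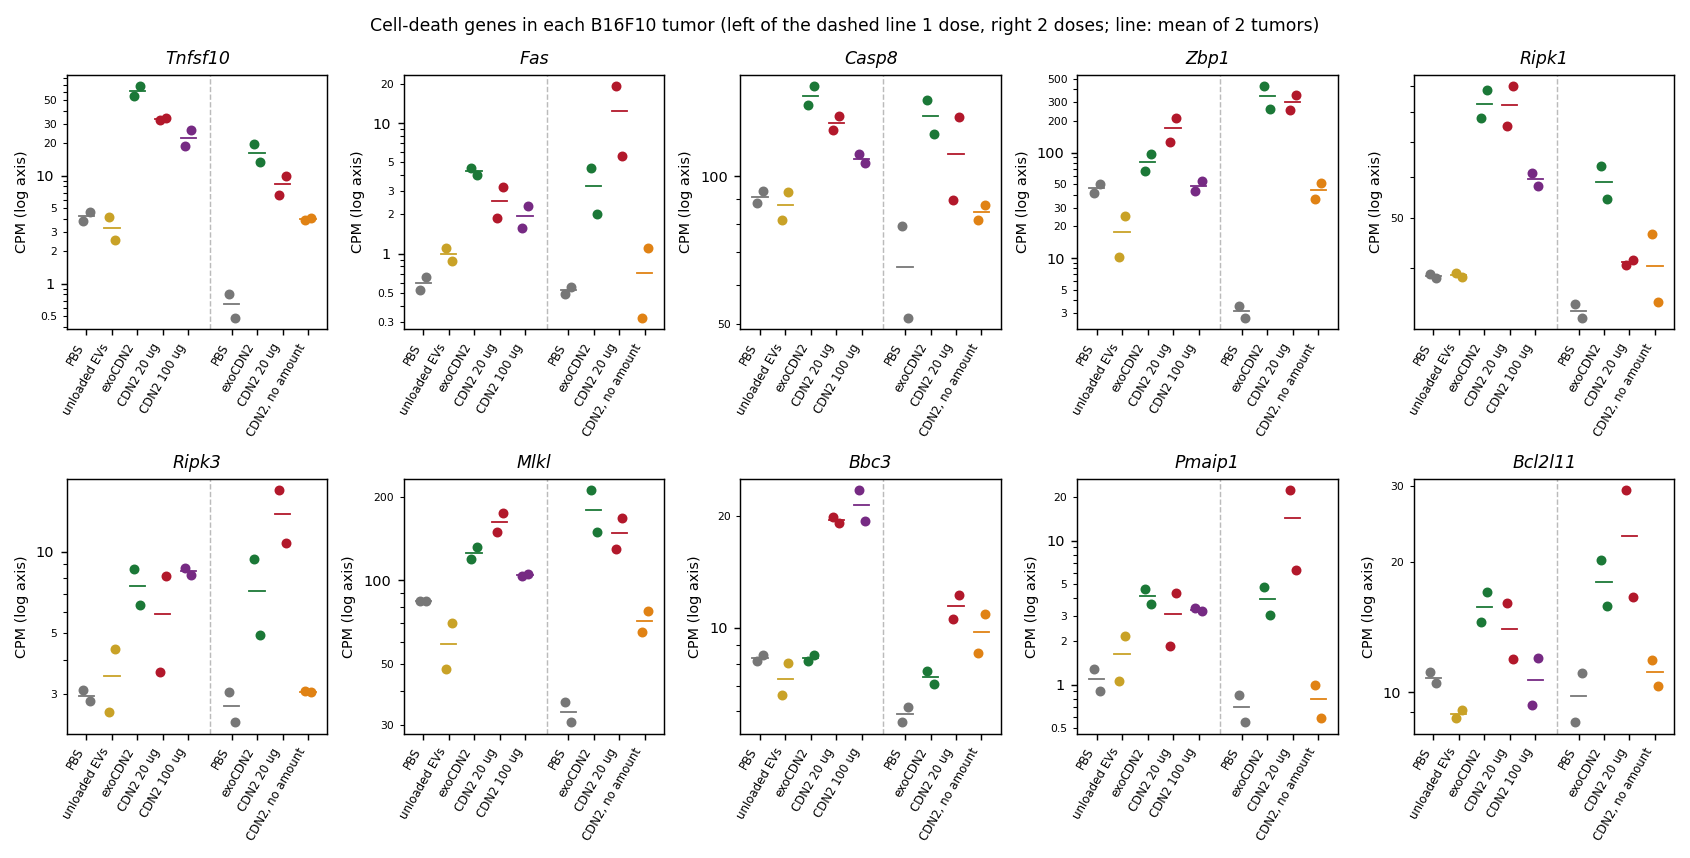
CPM of the 10 cell-death genes in each of the 18 tumors on a log axis, with 1 dose left and 2 doses right of the dashed line, a point per tumor and a line at the mean of 2 tumors. Zbp1 spans from 2.72 CPM in a PBS tumor to 427 CPM in an exoCDN2 tumor, both after 2 doses, while Bbc3 stands highest after 1 dose of free CDN2.

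Each treatment was compared with the PBS tumors of its dose number. After 1 dose, exoCDN2 raised 3 of the 10 genes (2.20% of all genes tested were called higher and 0.425% lower), CDN2 (20 µg) raised 4 (2.26% higher and 0.886% lower) and CDN2 (100 µg) raised 2 (1.82% higher and 0.620% lower). After 2 doses, exoCDN2 raised 7 (8.87% higher and 2.48% lower) and CDN2 (20 µg) raised 7 (20.0% higher and 10.6% lower). No gene of the 10 was called lower in these 5 comparisons. A call needed an adjusted p under 0.05 in the edgeR quasi-likelihood test, with Benjamini-Hochberg adjustment over all genes tested, and a ratio over 2. The median log2 fold change of the 10 genes was 0.97, 1.16 and 0.99 after 1 dose of exoCDN2, CDN2 (20 µg) and CDN2 (100 µg), and 1.91 and 2.24 after 2 doses of exoCDN2 and CDN2 (20 µg). Over all genes these medians lay between -0.02 and 0.01. These comparisons share their PBS tumors, so their values are given side by side only.

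**Figure D2:**
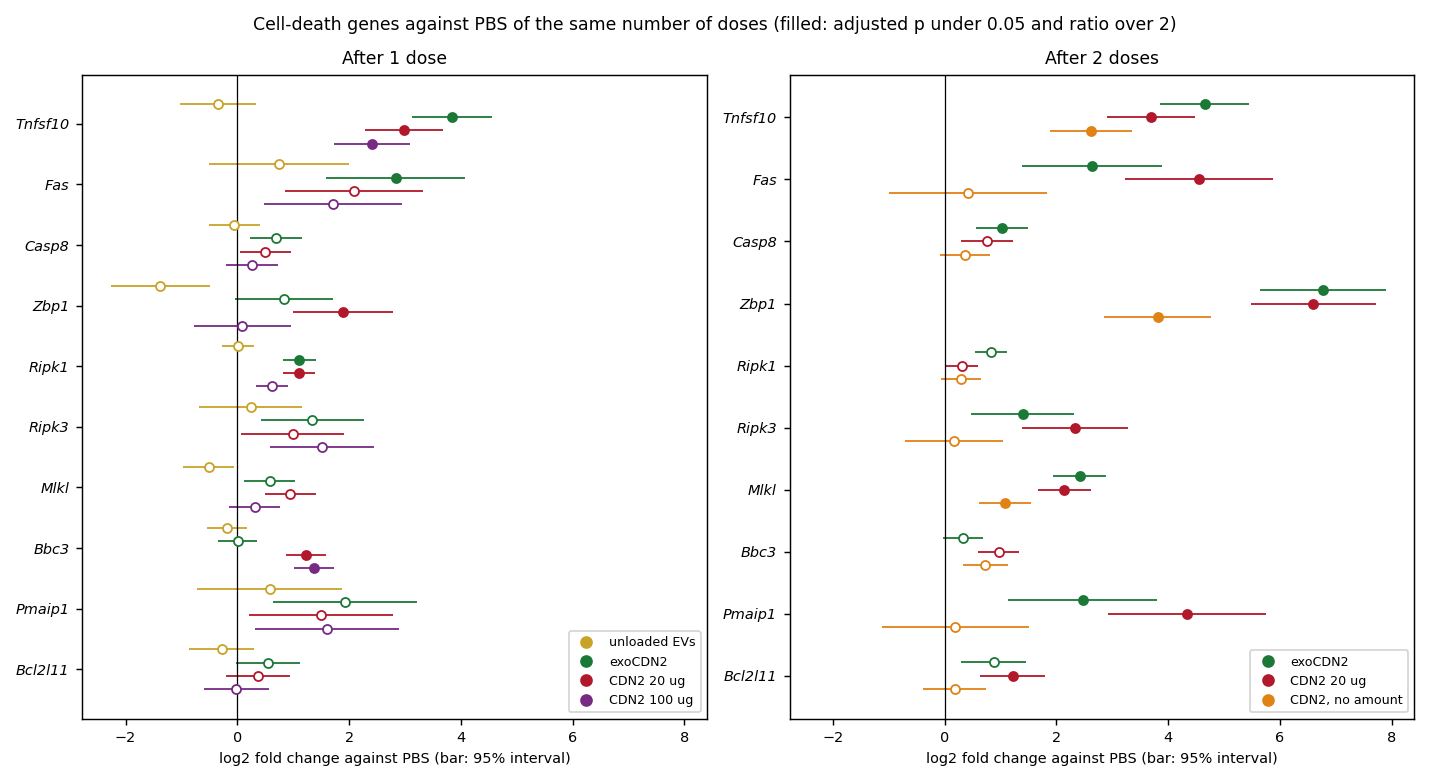
Log2 fold change of each gene against PBS after 1 dose (left) and 2 doses (right), with bars for the 95% interval and filled points for genes past both limits. Tnfsf10 is filled in all 5 comparisons with a stated CDN2 amount, and unloaded EVs have no filled point.

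Unloaded EVs were compared with PBS to ask whether the vesicle alone moved these genes. None of the 10 genes was called in edgeR (0.00% of all genes were called higher and 0.00% lower), 2 had an unadjusted p under 0.05, and DESeq2 called 0. Zbp1 stood at 10.12 and 25.2 CPM in the EV tumors and at 41.2 and 50.5 CPM in the PBS tumors. The EV tumors lay below both PBS tumors, at a log2 fold change of -1.38 ± 0.41 (SE) with an adjusted p of 0.98, and it was called only when no filter on low counts was used. Against unloaded EVs instead of PBS, exoCDN2 raised 4 of the 10 genes (2.52% of all genes were called higher and 0.425% lower): Tnfsf10 by 4.19 ± 0.34, Ripk1 by 1.10 ± 0.13, Mlkl by 1.09 ± 0.21 and Zbp1 by 2.21 ± 0.42 in log2. The Zbp1 value was 3.01 without unloaded EVs replicate 2. The Mlkl and Zbp1 calls were lost without unloaded EVs replicate 1 or exoCDN2 replicate 2, and that of Mlkl also without exoCDN2 replicate 1.

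Tnfsf10 (ENSMUSG00000039304, chr3:27317028-27342427, plus strand, GRCm38) encodes TRAIL, a ligand that triggers apoptosis through a death receptor. After 1 dose it stood at 3.84 and 4.66 CPM in PBS tumors, 4.12 and 2.52 with unloaded EVs, 54.3 and 67.7 with exoCDN2, 33.1 and 34.2 with CDN2 (20 µg), and 18.8 and 26.5 with CDN2 (100 µg). The tumors given CDN2 in any form were all above those given PBS or EVs, with exoCDN2 highest. The log2 fold change against PBS was 3.84 ± 0.33 for exoCDN2 (adjusted p = 4.9e-05), 2.98 ± 0.32 for CDN2 (20 µg) (0.00025) and 2.41 ± 0.31 for CDN2 (100 µg) (0.0014). After 2 doses Tnfsf10 stood at 0.804 and 0.486 CPM with PBS, 19.5 and 13.3 with exoCDN2, and 6.71 and 10.01 with CDN2 (20 µg). So the level after the second dose was below that after the first in every group measured at both. Against PBS, which was itself lower, Tnfsf10 was 25.2-fold higher with exoCDN2 (log2 4.66 ± 0.36, adjusted p = 8.8e-06) and 12.96-fold higher with CDN2 (20 µg) (3.70 ± 0.36, 3.2e-05). The change relative to PBS was not called different between dose numbers by the interaction test, at 0.81 ± 0.45 in log2 for exoCDN2 (adjusted p = 0.33) and 0.71 ± 0.46 for CDN2 (20 µg) (0.28). With the PBS tumors of both dose numbers pooled, the log2 values were 2.74 and 1.78, still called. The genes with the most similar profile over 16 tumors were Trim21, Dtx3l and Gm20559, at root mean square log2 differences of 0.323 to 0.413, where the median gene differed by 1.67.

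Fas (ENSMUSG00000024778, chr19:34290666-34327772, plus strand) encodes the death receptor of Fas ligand. It stood at 0.53 and 0.66 CPM with 1 dose of PBS, 1.11 and 0.883 with unloaded EVs, 4.56 and 3.97 with exoCDN2, 1.88 and 3.21 with CDN2 (20 µg), and 1.58 and 2.32 with CDN2 (100 µg). Among the 1-dose groups exoCDN2 was highest and its tumors overlapped with no other group. The rise with exoCDN2 was 2.83 ± 0.57 in log2 (adjusted p = 0.017), and it was lost without any 1 of the 4 tumors compared (2.69 to 3.00, with p up to 0.19). For CDN2 (20 µg) the value was 2.09 ± 0.57 with an adjusted p of 0.068, and it was called in DESeq2 (0.0068), with PBS pooled (0.0094), with only these groups fitted (0.035), without a filter on low counts and in a fit without the tumors given 2 doses of CDN2 (20 µg). After 2 doses Fas stood at 0.495 and 0.552 CPM with PBS, 4.54 and 2.02 with exoCDN2, and 19.2 and 5.61 with CDN2 (20 µg). Here both CDN2 (20 µg) tumors lay above both exoCDN2 tumors. Directly between exoCDN2 and CDN2 (20 µg), the Fas difference after 1 dose was 0.75 in log2 and was not called (adjusted p = 0.45). After 2 doses it was -1.91 (0.017), and -0.79 without CDN2 replicate 1. Whether the direct difference changed between dose numbers was not tested. Against PBS after 2 doses, Fas rose by 4.55 ± 0.61 in log2 with CDN2 (20 µg) (adjusted p = 0.00017) and by 2.64 ± 0.57 with exoCDN2 (0.0079). The exoCDN2 call was lost without exoCDN2 replicate 1 (1.94) or PBS replicate 2, and the CDN2 (20 µg) value was 3.41 without CDN2 replicate 1 and 5.17 without replicate 2, still called. The nearest profiles were Mxd1 (0.148), another of the 10 genes, Pmaip1 (0.266), and Ier5 (0.267), against a median of 1.02.

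Casp8 (ENSMUSG00000026029, chr1:58795374-58847503, plus strand) encodes the initiator caspase of death receptors. It was abundant and its range was narrow, 2.97-fold over the 18 tumors, from 51.5 to 153 CPM. After 1 dose it stood at 88.2 and 93.1 CPM with PBS and at 139 and 153 with exoCDN2, a log2 difference of 0.69 ± 0.21 that was not called (adjusted p = 0.11). After 2 doses it stood at 79.3 and 51.5 CPM with PBS, 143 and 122 with exoCDN2, and 89.3 and 132 with CDN2 (20 µg). Casp8 rose with exoCDN2 by 1.02 ± 0.21 (adjusted p = 0.0062), just past the ratio limit. Without exoCDN2 replicate 1 or PBS replicate 2, or with PBS pooled, it was no longer called. With CDN2 (20 µg) its 0.76 ± 0.21 passed the p limit (0.011) but not the ratio limit, which it passed without CDN2 replicate 1 (1.01) or PBS replicate 1 (1.11). It missed the p limit too with PBS pooled (0.51, adjusted p = 0.056) and with only these groups fitted (0.73, 0.2). The same held without CDN2 replicate 2 (0.43) or PBS replicate 2 (0.48).

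Zbp1 (ENSMUSG00000027514, chr2:173206612-173218923, minus strand) encodes the sensor of Z-form nucleic acids upstream of RIPK3. It had the widest range of the 10 genes, 157-fold over the 18 tumors. After 1 dose it stood at 41.2 and 50.5 CPM with PBS, 66.3 and 97.1 with exoCDN2, 127 and 212 with CDN2 (20 µg), and 42.9 and 54.1 with CDN2 (100 µg). Only CDN2 (20 µg) was called against PBS at this point, at 1.89 ± 0.41 in log2 (adjusted p = 0.022), and not without CDN2 replicate 2 or either PBS tumor, nor with PBS pooled. After 2 doses Zbp1 stood at 3.53 and 2.72 CPM with PBS, 427 and 257 with exoCDN2, and 253 and 351 with CDN2 (20 µg). The 2 treated groups overlapped with each other and lay far above PBS. The rise was 109-fold for exoCDN2 (6.77 ± 0.52, adjusted p = 7.3e-06) and 96.6-fold for CDN2 (20 µg) (6.59 ± 0.51, 7.1e-06). With PBS pooled over both dose numbers, log2 values were 3.81 and 3.63. Its nearest profiles were Apol9b (0.306), Phf11d (0.459) and Apol9a (0.517), against a median of 2.05. Apol9a and Apol9b are near-identical copies whose reads the counting could split.

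Ripk1 (ENSMUSG00000021408, chr13:34002363-34037147, plus strand) encodes the kinase that joins TNF signalling to survival, apoptosis or necroptosis. Its exons overlap the processed pseudogene Gm17084 over 511 bases and the antisense gene Serpinb6a over 241 bases, so its counts are uncertain by the reads shared there. It stood at 38.9 and 38.2 CPM with 1 dose of PBS, 39.1 and 38.4 with unloaded EVs, 78.2 and 88.3 with exoCDN2, 75.2 and 90.0 with CDN2 (20 µg), and 61.2 and 57.6 with CDN2 (100 µg). PBS and EV tumors were tightly grouped and every CDN2 tumor was above them. The rise was 1.11 ± 0.13 in log2 for exoCDN2 (adjusted p = 0.00055) and 1.10 ± 0.13 for CDN2 (20 µg) (0.00059), the latter under the ratio limit without CDN2 replicate 2. For CDN2 (100 µg) the value of 0.62 ± 0.13 passed the p limit only (0.025). It missed that limit with all 18 tumors in the fit (adjusted p = 0.063) and without a filter on low counts (0.06). Leaving out any single tumor of the 2 groups also lost it, at 0.58 to 0.66 in log2. After 2 doses Ripk1 stood at 34.1 and 32.0 CPM with PBS, 63.0 and 54.3 with exoCDN2, and 40.5 and 41.5 with CDN2 (20 µg). No 2-dose comparison called it against PBS, though 0.83 ± 0.13 with exoCDN2 had an adjusted p of 0.0012. Birc2, which encodes a ubiquitin ligase that acts on RIPK1, was among the 3 nearest profiles (0.18), with Etv6 (0.136) and Parp8 (0.171), against a median of 0.568.

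Ripk3 (ENSMUSG00000022221, chr14:55784995-55788865, minus strand) encodes the kinase that activates MLKL. It was scarce, at 3.09 and 2.82 CPM with 1 dose of PBS, 8.62 and 6.36 with exoCDN2, 3.60 and 8.16 with CDN2 (20 µg), and 8.72 and 8.19 with CDN2 (100 µg). The 1-dose comparisons did not call it in edgeR. For CDN2 (100 µg), at 1.52 ± 0.42 in log2, the adjusted p was 0.089 in edgeR and 0.013 in DESeq2, and it was also called with PBS pooled, with only these groups fitted and without a filter on low counts. After 2 doses Ripk3 stood at 3.05 and 2.36 CPM with PBS, 9.38 and 4.92 with exoCDN2, and 16.8 and 10.8 with CDN2 (20 µg). It rose by 2.34 ± 0.44 with CDN2 (20 µg) (adjusted p = 0.0012) and by 1.40 ± 0.42 with exoCDN2 (0.040). The exoCDN2 call was lost with only these groups fitted and without exoCDN2 replicate 1 or either PBS tumor.

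Mlkl (ENSMUSG00000012519, chr8:111311797-111338177, minus strand) encodes the executioner of necroptosis. With 1 dose it stood at 83.9 and 84.0 CPM in PBS tumors, 47.9 and 69.9 with unloaded EVs, 119 and 131 with exoCDN2, 149 and 175 with CDN2 (20 µg), and 103 and 105 with CDN2 (100 µg). No 1-dose comparison with PBS called it. That of CDN2 (20 µg), at 0.95 ± 0.21 (adjusted p = 0.024), passed the p limit only. It was called with PBS pooled (1.46, 0.021) and without CDN2 replicate 1 (1.08). The p limit was missed without CDN2 replicate 2 (0.83) or without either PBS tumor (0.95 in each case). With 2 doses it stood at 36.4 and 30.8 CPM in PBS tumors, 210.4 and 149 with exoCDN2, and 130 and 167 with CDN2 (20 µg). Mlkl rose by 2.42 ± 0.22 in log2 with exoCDN2 (adjusted p = 2.4e-05) and by 2.14 ± 0.22 with CDN2 (20 µg) (3.7e-05). With PBS pooled, these were 1.61 and 1.34. The nearest profiles were Slc39a2 (0.218), Nmi (0.229) and Tmem229b (0.267), against a median of 0.829.

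Bbc3 (ENSMUSG00000002083, chr7:16308393-16318205, plus strand) encodes PUMA, a BH3-only protein and known p53 target. It stood at 8.12 and 8.47 CPM with 1 dose of PBS, 6.59 and 8.02 with unloaded EVs, 8.16 and 8.45 with exoCDN2, 19.9 and 19.1 with CDN2 (20 µg), and 23.4 and 19.4 with CDN2 (100 µg). The exoCDN2 tumors lay between the 2 PBS tumors, and the 4 tumors given free CDN2 lay above all others of that time. Bbc3 rose by 1.23 ± 0.16 in log2 with CDN2 (20 µg) (adjusted p = 0.0012) and by 1.37 ± 0.16 with CDN2 (100 µg) (0.00093). After 2 doses it stood at 5.59 and 6.12 CPM with PBS, 7.67 and 7.07 with exoCDN2, and 10.6 and 12.3 with CDN2 (20 µg). The CDN2 (20 µg) value of 0.97 ± 0.17 passed the p limit (0.00073) but stayed just under the ratio limit, which it passed in DESeq2 and without CDN2 replicate 1 or PBS replicate 2.

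Pmaip1 (ENSMUSG00000024521, chr18:66458533-66465565, plus strand) encodes NOXA, a BH3-only protein that binds MCL1. It stood at 1.28 and 0.899 CPM with 1 dose of PBS, 4.62 and 3.62 with exoCDN2, 1.85 and 4.31 with CDN2 (20 µg), and 3.40 and 3.25 with CDN2 (100 µg). All 6 of these CDN2 tumors were above PBS, and none of the 3 comparisons was called in edgeR. That of exoCDN2, at 1.92 ± 0.59 (adjusted p = 0.11), was called in DESeq2 (0.019), with PBS pooled, with only these groups fitted, without a filter on low counts and without the tumors given 2 doses of CDN2 (20 µg). After 2 doses Pmaip1 stood at 0.846 and 0.552 CPM with PBS, 4.80 and 3.03 with exoCDN2, and 22.3 and 6.28 with CDN2 (20 µg). It rose by 4.34 ± 0.65 in log2 with CDN2 (20 µg) (adjusted p = 0.00032) and by 2.47 ± 0.61 with exoCDN2 (0.015), the latter not without exoCDN2 replicate 1 or PBS replicate 2. The CDN2 (20 µg) value was 3.16 without CDN2 replicate 1 and 4.97 without replicate 2, still called. Its nearest profiles were Glipr2 (0.239), Arhgef3 (0.24) and Bcl2a1b (0.258), against a median of 0.979.

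Bcl2l11 (ENSMUSG00000027381, chr2:128126038-128162547, plus strand) encodes BIM, a BH3-only protein that binds all BCL2 guardians. With 1 dose its levels ran from 8.73 CPM in an EV tumor to 17.0 CPM in an exoCDN2 tumor, and no comparison with PBS called it. With 2 doses it stood at 8.54 and 11.05 CPM in PBS tumors, 20.2 and 15.8 with exoCDN2, and 29.2 and 16.6 with CDN2 (20 µg). The treated tumors were all above PBS. Bcl2l11 rose by 1.22 ± 0.27 in log2 with CDN2 (20 µg) (adjusted p = 0.0031), and not without CDN2 replicate 1 (0.76) or with only these groups fitted. With exoCDN2, 0.88 ± 0.26 passed the p limit only (0.039), and the ratio limit too without exoCDN2 replicate 2 (1.05). It missed the p limit with the replicate block (0.87, adjusted p = 0.054). The same held without exoCDN2 replicate 1 (0.69), PBS replicate 1 (0.70) or PBS replicate 2 (1.075).

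exoCDN2 (0.1 µg) was then set directly against free CDN2 (20 µg), in 20 pairs of a gene and a dose number. Packaging in EVs and the amount of CDN2 differ together in every direct comparison of these treatments. Their parts cannot be told apart. After 1 dose only Bbc3 differed, lower with exoCDN2 (0.408% of all genes were called lower and 0.201% higher), by 1.23 ± 0.16 in log2 (adjusted p = 0.034). That call was lost without any 1 of the 4 tumors (-1.26 to -1.18, with p up to 0.39). Tnfsf10 was at 0.86 ± 0.29 (adjusted p = 0.14) and Zbp1 at -1.05 ± 0.40 (0.18), the latter called without a filter on low counts. After 2 doses Fas and Pmaip1 were lower with exoCDN2 (12.0% of all genes were called lower and 7.34% higher), by 1.91 ± 0.52 (adjusted p = 0.017) and 1.86 ± 0.57 (0.025). Without CDN2 replicate 1, which held the highest level of both, the values were -0.79 and -0.70 and neither was called, while without CDN2 replicate 2 they were -2.55 and -2.51. Fas was at -2.60 without exoCDN2 replicate 1. Fas was also not called without exoCDN2 replicate 2, Pmaip1 without either exoCDN2 tumor, and neither with only these 2 groups fitted. In CDN2 replicate 1 the neutrophil marker sum was also highest, at 882.5 CPM, against 17.9 and 60.9 CPM in the exoCDN2 tumors, and 5 of 6 neutrophil markers and 4 of 5 muscle markers were called lower with exoCDN2. Their part in the Fas and Pmaip1 values was not tested.

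Past the p limit but not the ratio limit after 2 doses were Tnfsf10 (0.96 ± 0.30, adjusted p = 0.028) and Ripk1 (0.52 ± 0.13, 0.012), higher with exoCDN2, and Bbc3 (-0.64 ± 0.16, 0.013), lower. Tnfsf10 was called without a filter on low counts (1.02) and without CDN2 replicate 2 (1.30) or exoCDN2 replicate 2 (1.21). Ripk3 was at -0.94 ± 0.41 (adjusted p = 0.090), and was called in DESeq2 and without CDN2 replicate 2 (-1.23). Zbp1 and Mlkl gave differences of 0.18 (95% interval -0.68 to 1.04) and 0.27 (-0.18 to 0.73).

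**Figure D3:**
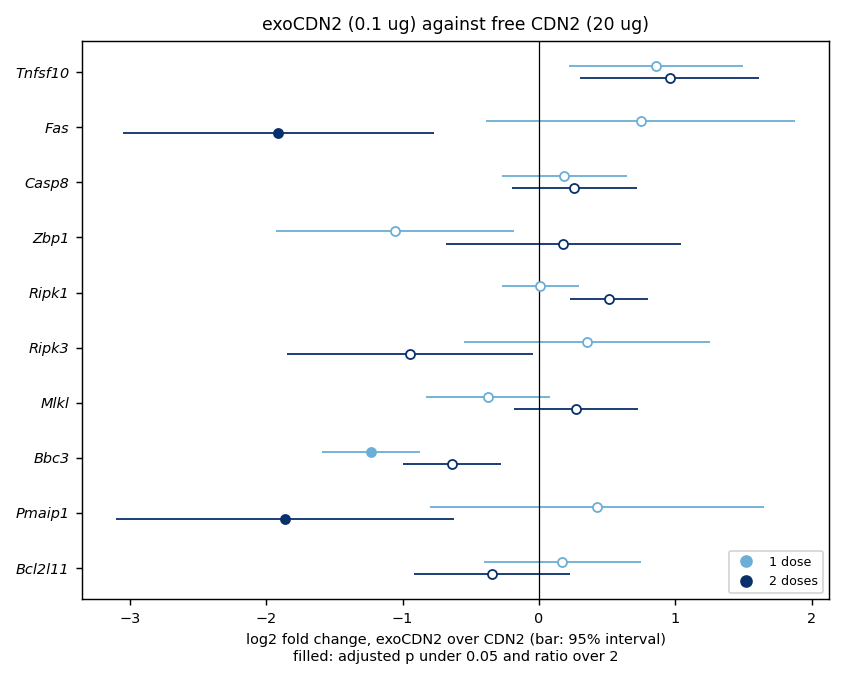
Log2 fold change of exoCDN2 (0.1 µg) over free CDN2 (20 µg) for each gene after 1 dose (light) and 2 doses (dark), with 95% intervals and filled points for genes past both limits. Bbc3 is filled after 1 dose, and Fas and Pmaip1 after 2 doses, all to the left of 0.

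**Figure D4:**
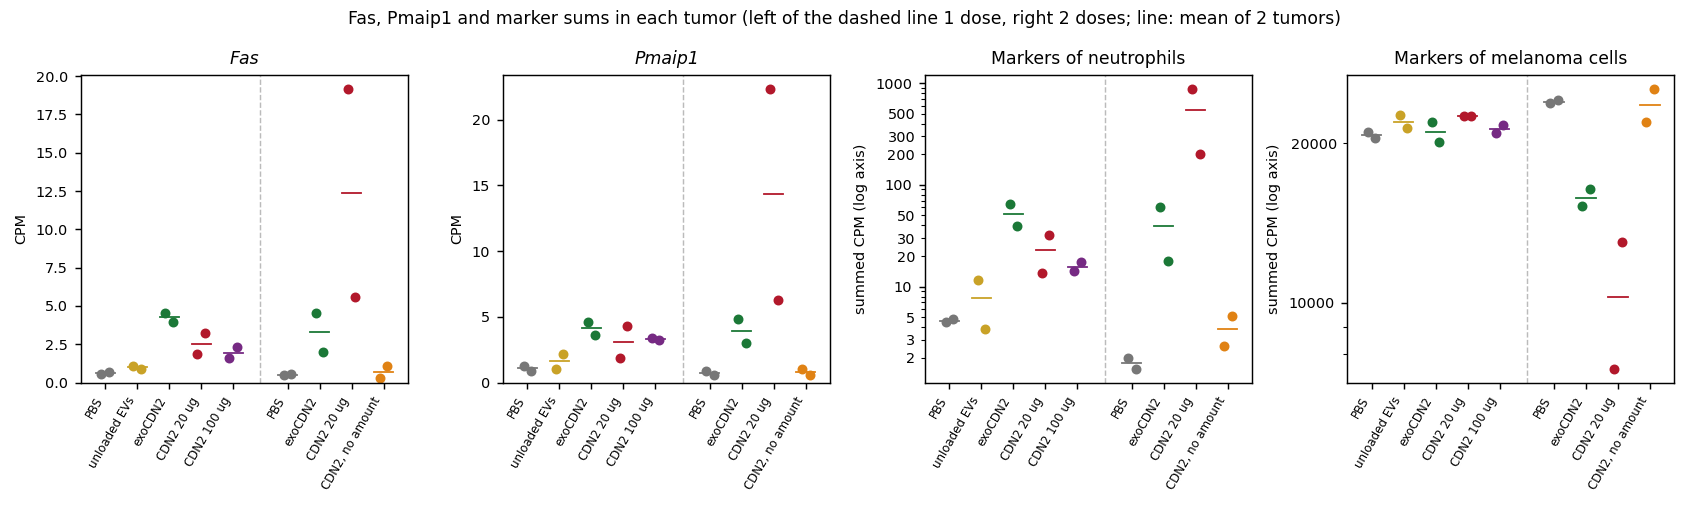
CPM of Fas and Pmaip1, and summed CPM of 6 neutrophil markers and 7 melanoma markers on log axes, for each of the 18 tumors. The tumor with the highest Fas (19.2 CPM) and Pmaip1 (22.3 CPM) also has the highest neutrophil sum (882.5 CPM) and the lowest melanoma sum (7515 CPM).

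The amount of free CDN2 was compared after 1 dose, 100 µg against 20 µg. None of the 10 genes was called in edgeR (0.230% of all genes were called higher and 0.224% lower), 3 had an unadjusted p under 0.05, and DESeq2 called 1. That gene was Zbp1, at 42.9 and 54.1 CPM with 100 µg and 127 and 212 CPM with 20 µg, a log2 difference of -1.80 ± 0.41 (edgeR adjusted p = 0.069, DESeq2 0.00079). It was also called with only these groups fitted (0.032) and in a fit without the tumors given 2 doses of CDN2 (20 µg) (0.030), an alternative added after the data were seen. Bbc3 was at 23.4 and 19.4 CPM with 100 µg, overlapping the 19.9 and 19.1 CPM with 20 µg.

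The PBS tumors themselves differed between dose numbers. Tnfsf10 fell by 2.71 ± 0.35 in log2 from 1 dose to 2 doses of PBS (adjusted p = 0.0019), Zbp1 by 3.87 ± 0.46 (9e-04) and Mlkl by 1.32 ± 0.21 (0.0076), and these 3 were the genes called of the 10 (1.05% of all genes were called lower and 0.0473% higher). The Mlkl call was lost without either 1-dose tumor or 2-dose replicate 2. Tumors with 1 dose and 2 doses were taken on different days, and dose number and tumor age cannot be told apart. The T cell marker sum was 7.24 and 9.23 CPM with 1 dose of PBS and 2.00 and 1.02 CPM with 2, the macrophage and monocyte sum 92.3 to 120.4 against 57.8 to 71.3 CPM, and the keratinocyte sum 63.2 to 116.0 against 0.044 to 0.516 CPM. Their part in the PBS values was not tested.

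Within a treatment, the second dose was compared with the first. For exoCDN2, Zbp1 was 4.19-fold higher (2.07 ± 0.41, adjusted p = 0.0088) and Tnfsf10 lower (-1.89 ± 0.30, 0.0037), the 2 genes called of the 10 (5.10% of all genes were called higher and 2.34% lower). The Zbp1 call was lost without exoCDN2 replicate 1 of either dose number. Ripk1, at -0.51 ± 0.13 (0.027), passed the p limit only. For CDN2 (20 µg), 3 genes rose and 2 fell (14.4% of all genes were called higher and 6.36% lower). Fas rose by 2.27 ± 0.54 (adjusted p = 0.0075), Pmaip1 by 2.21 ± 0.58 (0.012) and Ripk3 by 1.23 ± 0.42 (0.039), while Tnfsf10 fell by 2.00 ± 0.31 (0.0011) and Ripk1 by 1.01 ± 0.13 (0.00067). The calls of Fas, Pmaip1 and Ripk3 were each lost without replicate 1 of either dose number, at 1.14, 1.03 and 0.73 in log2 at the lowest. Without 2-dose replicate 2 Fas was at 2.89 and Pmaip1 at 2.84, and without 1-dose replicate 2 Pmaip1 was at 2.93 and Ripk3 at 1.92. The Ripk1 call was lost in DESeq2, with RLE factors (-0.98), with only these groups fitted (adjusted p = 0.078) and without 1-dose replicate 2 or 2-dose replicate 1. Bbc3, which had risen after the first dose, was lower after the second by 0.77 ± 0.16 (0.0047), short of the ratio limit. Between doses of exoCDN2, 5 of 6 T cell, 2 of 4 NK cell and 3 of 6 macrophage and monocyte markers were also called higher. Between doses of CDN2 (20 µg), 0, 2 and 3 of them were. Their part in the values of these genes was not tested.

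The change relative to PBS was tested between dose numbers with an interaction term. For exoCDN2 it was larger after 2 doses for Zbp1 (5.94 ± 0.61 in log2, adjusted p = 0.00056) and Mlkl (1.84 ± 0.30, 0.0035), with 5.12% of all genes called larger and 1.70% smaller, and both calls held in all 16 alternatives run. For CDN2 (20 µg) it was larger for Zbp1 (4.71 ± 0.60, 0.0016), Pmaip1 (2.84 ± 0.84, 0.033), Fas (2.46 ± 0.80, 0.046) and Mlkl (1.20 ± 0.30, 0.016), with 11.7% called larger and 5.16% smaller. The Zbp1 call held in all 15 alternatives, that of Mlkl in 10, that of Pmaip1 in 8 and that of Fas in 6. Without 2-dose CDN2 replicate 1 and without replicate 2, Pmaip1 was at 1.65 and 3.46 and Fas at 1.31 and 3.07, the first of each not called, and Pmaip1 was at 3.55 without 1-dose CDN2 replicate 2. The PBS tumors enter both of these tests, and their lower Zbp1 and Mlkl after 2 doses is part of each value.

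The 2 tumors given 2 doses of CDN2 of an unstated amount were compared with PBS in a fit of all 18 tumors. Zbp1 stood at 36.4 and 51.4 CPM, Tnfsf10 at 3.91 and 4.09 and Mlkl at 65.0 and 77.4, each above the 2-dose PBS tumors. Zbp1 overlapped the tumors given 1 dose of PBS, and Mlkl was below them. Against PBS of 2 doses, Zbp1 (3.81 ± 0.45, adjusted p = 0.00042), Tnfsf10 (2.62 ± 0.34, 0.0011) and Mlkl (1.08 ± 0.22, 0.025) were called (0.928% of all genes were called higher and 0.0414% lower), and with PBS pooled none was, at 0.84, 0.71 and 0.28. The Mlkl call was also lost without replicate 2 of these tumors or of PBS, and with only these groups fitted (1.06, adjusted p = 0.1). Fas was at 0.324 and 1.10 CPM and Pmaip1 at 0.995 and 0.592 CPM, both overlapping PBS.

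A further 79 genes of the same pathways, in 8 lists, put these changes in context. After 1 dose of exoCDN2, 8 of 79 rose and 0 fell (2.20% and 0.425% of all genes), with a median log2 fold change of 0.10. Of the adaptors and ubiquitin regulators of the death complexes 4 of 16 rose, including Tnfaip3 (3.50 ± 0.41), which encodes the deubiquitinase A20, and Birc3 (2.98 ± 0.38), which encodes cIAP2. Of the death ligands and receptors 1 of 13 rose, Tnf (4.01 ± 0.61), from 1.26 and 1.40 CPM to 21.4 and 21.5 CPM, and the call was lost without either PBS tumor. Among the necroptosis sensors and modulators 2 of 9 rose, with Tlr3 (2.70 ± 0.33), a sensor of double-stranded RNA, leading. CDN2 (20 µg) raised 7 of the 79 and lowered 1 (2.26% and 0.886% of all genes), with Tnfaip3 at 3.87 ± 0.42, Tnf at 3.66 ± 0.60, Tlr3 at 2.31 ± 0.33, and the p53 target Cdkn1a at 1.46 ± 0.26. The Tnf and Cdkn1a calls did not hold without either PBS tumor, and the Tnf value was 4.28 without CDN2 replicate 1 and 2.60 without replicate 2. CDN2 (100 µg) raised 5 of the 79 and lowered 0 (1.82% and 0.620% of all genes).

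After 2 doses, exoCDN2 raised 18 of the 79 and lowered 0 (8.87% and 2.48% of all genes), and CDN2 (20 µg) raised 26 and lowered 3 (20.0% and 10.6%), with medians of 0.23 and 0.49. Death ligands and receptors had 6 of 13 higher with exoCDN2 and 9 of 13 with CDN2 (20 µg). Fasl, the ligand of Fas and a product of T and NK cells, had 118 and 95 counts in the exoCDN2 tumors and 0 and 2 in PBS, which makes it at least 28.7-fold higher against a floor of 3 counts per library. With CDN2 (20 µg) Fasl was also called higher than with PBS (adjusted p = 0.0013). The T cell marker sum was 25.1 to 31.7 CPM with exoCDN2 and 1.02 to 2.00 CPM with PBS, with 5 of 6 T cell markers called higher, and its part in the Fasl value was not tested. Tnfrsf23, which encodes a decoy receptor for TRAIL, was at 231 and 57.0 CPM with CDN2 (20 µg) and 2.33 and 1.33 CPM with PBS (6.29 ± 0.65). Tnfrsf1b, a TNF receptor gene, rose by 2.94 ± 0.51 with exoCDN2 and by 4.35 ± 0.54 with CDN2 (20 µg). The CDN2 (20 µg) values without replicate 1 and without replicate 2 of that group were 4.95 and 6.96 for Tnfrsf23 and 3.26 and 4.95 for Tnfrsf1b, all called.

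Downstream of the receptors, 1 of 12 apoptotic caspase and apoptosome genes fell with CDN2 (20 µg), where 10.6% of all genes were lower, Casp2 (-1.13 ± 0.16), which missed the ratio limit without CDN2 replicate 1 or with PBS pooled. Cflar, whose product c-FLIP restrains caspase-8, rose by 1.13 ± 0.23 with exoCDN2, and not without exoCDN2 replicate 1 or PBS replicate 2, nor with PBS pooled. Of the antiapoptotic BCL2 genes 3 of 7 rose with exoCDN2 and 4 of 7 with CDN2 (20 µg), where 8.87% and 20.0% of all genes were higher. With both treatments 3 of these were Bcl2a1a, Bcl2a1b and Bcl2a1d, near-identical copies whose counts are uncertain. The other with CDN2 (20 µg) was Bcl2l1 (1.39 ± 0.22), which encodes BCL-XL. The effector Bax was at 363 and 307 CPM with CDN2 (20 µg) against 125.0 and 156 with PBS and 131 and 135 with exoCDN2, a rise of 1.25 ± 0.14. Of p53 and its targets 2 of 12 rose with exoCDN2 and 4 with CDN2 (20 µg), with 1 lower, and Cdkn1a led in both, at 1.71 ± 0.26 and 3.10 ± 0.28. Adar, whose product edits double-stranded RNA and restrains ZBP1, rose by 1.77 ± 0.26 with exoCDN2 and by 1.19 ± 0.25 with CDN2 (20 µg). Chmp4b, a membrane repair gene that opposes MLKL, rose by 1.61 ± 0.19 with CDN2 (20 µg) and was at 0.65 ± 0.19 with exoCDN2, past the p limit only (adjusted p = 0.032). Directly between the treatments Adar was at 0.58 ± 0.25 (adjusted p = 0.086), and Chmp4b was lower with exoCDN2 at -0.96 ± 0.19 (0.0039), past the p limit and short of the ratio limit.

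Directly between the treatments, exoCDN2 differed from CDN2 (20 µg) in 2 of the 79 genes after 1 dose (0.201% of all genes were higher and 0.408% lower), both lower, Phlda3 (-1.08 ± 0.18) and Endog (-1.18 ± 0.25), each lost without any 1 of the 4 tumors. After 2 doses 3 were higher and 11 lower with exoCDN2 (7.34% and 12.0% of all genes). Bax (-1.33 ± 0.14), Cdkn1a (-1.39 ± 0.26) and Tnfrsf23 (-3.39 ± 0.56) were among the lower and Fasl (1.79 ± 0.57) among the higher. With only these 2 groups fitted none of these 4 genes was called, and Cdkn1a and Fasl were also not called without CDN2 replicate 1, nor Fasl without either exoCDN2 tumor. Tnfrsf23 was at -2.06 without CDN2 replicate 1 and -4.07 without replicate 2, and Fasl at 2.42 without replicate 2, all called. Of the 6 T cell markers 3 were also called higher with exoCDN2 in this comparison, with a median log2 difference of 1.89, and their part in the Fasl value was not tested.

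**Figure D5:**
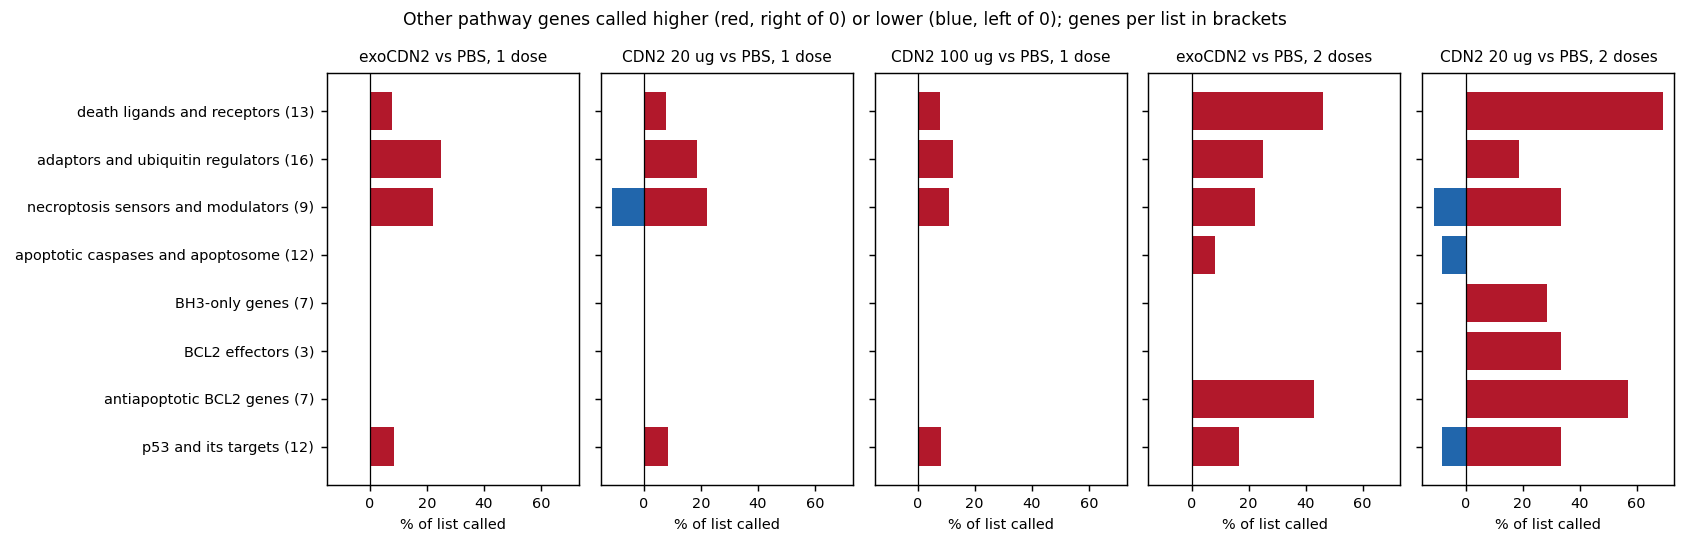
Share of each list of other pathway genes called higher (right of 0) or lower (left of 0) against PBS, in percent of the genes tested in that list, for 5 comparisons. Death ligands and receptors reach 6 of 13 genes with 2 doses of exoCDN2 and 9 of 13 with 2 doses of CDN2 (20 µg).

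Markers of other cell types were read beside these counts. After 2 doses, exoCDN2 raised 5 of 6 T cell, 4 of 4 NK cell, 4 of 6 macrophage and monocyte and 5 of 6 neutrophil markers. CDN2 (20 µg) raised 4, 2, 4 and 6 of them. Of all genes, 8.87% were called higher with exoCDN2 and 20.0% with CDN2 (20 µg). Of 5 dendritic cell markers 0 were called higher with either treatment, and 1 was called lower with CDN2 (20 µg). Their median log2 fold change was -0.26 with exoCDN2 and -0.81 with CDN2 (20 µg). Of the 7 melanoma markers 4 were called lower with CDN2 (20 µg) and 0 with exoCDN2 (10.6% and 2.48% of all genes). The melanoma sum with exoCDN2 was 15215 and 16361 CPM. After 1 dose the neutrophil sum was 39.2 and 64.5 CPM with exoCDN2, 13.7 to 31.8 with CDN2 (20 µg) and 4.53 and 4.78 CPM with PBS. Of the 6 neutrophil markers 3 were called higher with exoCDN2 and 2 with CDN2 (20 µg) (2.20% and 2.26% of all genes). No T or NK cell marker was called higher. With CDN2 (100 µg) 3 of 6 T cell markers and 1 of 6 macrophage and monocyte markers were called lower (0.620% of all genes). The T cell list had a median of -3.42 in log2, and its sum was 1.40 and 1.45 CPM against 7.24 and 9.23 CPM with PBS. With CDN2 (20 µg) 3 of 5 endothelial markers and 1 of 7 melanoma markers were called lower after 1 dose (0.886% of all genes). The part of these cells in the levels of the 10 genes was not tested.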

How the data were processed

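Tumor mRNA was sequenced as paired reads. After quality filtering, the authors used OSA (OmicSoft ArraySuite) for alignment to the GRCm38 genome (mm10 in the labels) and RSEM with Ensembl gene models for quantification, and deposited the expected counts per gene without normalization. Of these expected counts 8.75% to 12.7% per tumor were not whole numbers, and they were rounded. Paralogs and overlapping genes can share reads in such estimates. Symbols and positions came from GENCODE M21, which matched 50376 of 50600 identifiers.

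edgeR 4.0.16 in R 4.3.3 kept genes with a count of about 10 in at least 2 tumors and a total of 15 (filterByExpr) and scaled libraries by TMM. A single quasi-likelihood fit with group means covered 16 tumors in 8 groups, leaving 8 residual degrees of freedom, and a second fit covered all 18 for the group of unstated amount. The biological coefficient of variation was 0.22. Benjamini-Hochberg adjustment ran over 16927 genes. The limits for a call (adjusted p below 0.05, ratio above 2) were those of the study, which used DESeq2. DESeq2 1.42.0 was an alternative here. SE and 95% intervals come from the edgeR fit. The functions were tested on simulated data.

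The 10 genes, the pathway lists and the marker lists were chosen with earlier results of these data known. In each comparison, at most 3 higher and 3 lower genes of a list were open to naming, by smallest p, and at most 3 nearest profiles per gene. Counts set the precision of each value, and intervals do not cover differences between mice beyond the 2 tumors of a group. The study describes the tumors as biological replicates, while the labels name no animal.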

Additional observations from a re-analysis of the deposited data

Results flagged for a closer look

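The change against PBS differed between 1 dose and 2 doses, by the interaction test, in 7 pairs of a gene and a treatment. For exoCDN2 the difference was 5.94 in log2 for Zbp1 and 1.84 for Mlkl. For CDN2 (20 µg) it was 4.71 for Zbp1, 2.84 for Pmaip1, 2.46 for Fas, 1.20 for Mlkl and -0.79 for Ripk1 (adjusted p = 0.013), the last with a ratio under 2. The Ripk1 difference missed the p limit with only the groups compared in the fit (-0.84, adjusted p = 0.086) and without 1-dose PBS replicate 2 (-0.77). Zbp1 and Mlkl were also lower in PBS tumors after 2 doses than after 1, and without replicate 1 of the tumors given 2 doses of CDN2 (20 µg) the differences for Fas and Pmaip1 were 1.31 and 1.65, neither past the limit. Groups of 2 tumors were too small for a test of single outlying tumors.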

How the results depend on the processing

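Of the 49 calls of a gene in a comparison, all kept their direction in the 617 combinations of such a call and an alternative setting. The call was kept in 530 of these combinations, many of which share a fit. The Tnfsf10 calls against PBS with stated CDN2 amounts, and those of Zbp1 and Mlkl against PBS after 2 doses of exoCDN2 or CDN2 (20 µg), held in every alternative run. Alternatives gave other counts of called genes than those reported. Without a filter on low counts there were 1 for unloaded EVs, 5 for exoCDN2 and 5 for CDN2 (100 µg) against PBS after 1 dose, 2 for exoCDN2 against CDN2 after 1 dose, 7 for exoCDN2 against unloaded EVs and 1 for 100 µg against 20 µg. With only the groups compared in the fit there were 5 for exoCDN2 and 5 for CDN2 (100 µg) against PBS after 1 dose, 0 for exoCDN2 against CDN2 after 2 doses, 1 for 100 µg against 20 µg, 1 for CDN2 (20 µg) between doses and 1 for its interaction. With PBS tumors pooled there were 5 for exoCDN2 and 5 for CDN2 (100 µg) after 1 dose and 0 for CDN2 of unstated amount. DESeq2 gave 5 for exoCDN2 against PBS after 1 dose and 1 for 100 µg against 20 µg, which also had 1 in the fit without the 2-dose CDN2 (20 µg) tumors. With no limit on the ratio, exoCDN2 against CDN2 after 2 doses had 5. The cause was not tested. Leaving out each tumor in turn, where the lone tumor of a group is taken to vary like the others, gave 2 to 5 for CDN2 (20 µg) against PBS after 1 dose, 3 to 8 for exoCDN2 after 2 doses, 0 to 0 for exoCDN2 against CDN2 after 1 dose and 0 to 4 after 2 doses, 2 to 4 for exoCDN2 against unloaded EVs, 1 to 2 for exoCDN2 between doses, 1 to 6 for CDN2 (20 µg) between doses and 1 to 5 for its interaction. Zbp1 between exoCDN2 and CDN2 after 2 doses changed sign without CDN2 replicate 1 (-0.05) and without exoCDN2 replicate 1 (-0.23), in a range of -0.23 to 0.50 over single tumors left out.

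Replicate numbers are shared by the groups, but the labels give no shared animal or day. Deviations of same-numbered tumors correlated at a mean of -0.016 over 28 pairs of groups (-0.304 to 0.38, 5 above 0.1). The highest value was that of the 2-dose CDN2 (20 µg) and exoCDN2 groups. A low mean over all pairs cannot exclude pairing within some of them. The main fit treated the tumors as unpaired. With the replicate block, exoCDN2 against CDN2 after 1 dose had 0 called genes of the 10 instead of 1, and no other count of the 10 moved by more than 1.5 times. In that comparison the calls of the pathway genes Phlda3 (adjusted p = 0.058) and Endog (0.069) were lost too. Single calls also lost were Ripk3 with 2 doses of exoCDN2 (adjusted p = 0.055) and between doses of CDN2 (20 µg) (0.056), and Fas in the CDN2 interaction (0.063). Every count of the 10 genes was at least 15, and with 2 tumors per group a change that was not called is not shown to be absent.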
